A study of Mus musculus with 6 samples.

Results

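The EGF receptor family and its ligands were followed here in mouse embryonic stem cells (mESCs) and in the cardiac precursor cell cultures (CPCCs) derived from them. The 10 genes were taken by symbol from the gene count tables, 4 receptors (*Egfr*, *Erbb2*, *Erbb3* and *Erbb4*) and 6 ligands (*Hbegf*, *Areg*, *Ereg*, *Tgfa*, *Nrg1* and *Btc*), out of 16279 genes listed in either table. The CPCC table lists all 10 and the mESC table lists 5 of them. A table leaves out a gene with fewer than 10 counts over its 3 libraries.

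Bulk RNA-seq was performed on 3 libraries of each cell type. All cells were male F1 cells of a C57BL/6 mother (C57BL/6J in the study's methods) and a CAST/EiJ father, and the mESCs came from single-cell clones of lines made from separate blastocysts. mESCs were kept in 2i medium, which holds serum, LIF, the MEK inhibitor PD0325901 and the GSK3 inhibitor CHIR99021, without added EGF. CPCCs were grown from embryoid bodies of those clones in serum medium with EGF and FGF2 and without LIF and both inhibitors, and were used at the fourth passage as a mixed culture, so that the cell type, the added EGF and the inhibitors cannot be told apart in this comparison.

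Receptors of this family are tyrosine kinases of the cell surface that pair with each other when a ligand binds, and pass the signal to the Ras to ERK and PI3 kinase pathways. EGF, HB-EGF, amphiregulin, epiregulin, TGF-alpha and betacellulin bind EGFR, and some of them also ERBB4. Neuregulins bind ERBB3 and ERBB4, ERBB2 has no known ligand of its own, and ERBB3 has little kinase activity and signals through its partners. In the developing heart, neuregulin from the endocardium acts on ERBB2 and ERBB4 of the myocardium, and HB-EGF is needed for the valves.

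The mESC libraries held 6442639 to 6907330 counts and the CPCC libraries 8468819 to 11436062. Over all genes tested, the root mean square difference in log2 CPM was 1.76 to 2.12 between an mESC and a CPCC library, 0.60 to 0.65 among mESC libraries and 0.53 to 0.88 among CPCC libraries, with the CPCC library S04 the farther from the other two. All 8 pluripotency markers were lower in CPCCs by edgeR's quasi-likelihood test, and their summed level was 5304 to 5568 CPM in mESCs and 122 to 286 CPM in CPCCs. Of 8 cardiac progenitor markers, 3 were tested and 1, *Tbx20*, was higher, 4 were listed for CPCCs only and 1, *Tbx5*, for mESCs only. *Nkx2-5*, a defining marker of the label, had 16 counts in S04, 0 in S05 and 8 in S06, and is missing from the mESC table. Of 8 mesenchymal markers, 3 were tested and all 3 were higher in CPCCs, the other 5 were listed for CPCCs only, and their summed level was 6079 to 9349 CPM in CPCCs against 9.89 to 17.3 CPM in mESCs. In bulk samples, fewer cells of a type and less RNA per cell cannot be told apart.

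*Egfr* and *Erbb2* rose from mESCs to CPCCs, *Erbb3* did not pass the test, and *Erbb4* was listed for CPCCs only. Levels below are TMM-normalized CPM, the counts of a gene relative to the size of its library. *Egfr* (chromosome 11, 16752203 to 16913908 on GRCm38, plus strand), the receptor of the EGF added to CPCC medium, was measured at 1.39 CPM in S01, 1.62 in S02 and 1.90 in S03, the mESC libraries, and at 134.8 CPM in S04, 84.3 in S05 and 57.0 in S06, the CPCC libraries. Its counts were 9, 11 and 13 in mESCs and 1356, 695 and 497 in CPCCs. Every CPCC library lay far above every mESC library, and within CPCCs the level was highest in S04 and lowest in S06. The mean went from 1.64 ± 0.256 to 92.0 ± 39.5 CPM (SD, n = 3 each), a 55.6-fold rise. On the log2 scale the change was 5.80 with a standard error of 0.40. The adjusted p was 6.15e-06 by the quasi-likelihood test of edgeR, with the Benjamini-Hochberg method over 12471 genes.

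*Erbb2* (chromosome 11, 98412484 to 98437717, plus strand), the shared partner of the other receptors, was at 8.65 CPM in S01, 6.47 in S02 and 5.56 in S03, and at 14.4 CPM in S04, 30.3 in S05 and 22.0 in S06. The groups did not overlap, and S04, the library highest for *Egfr*, was the lowest CPCC library for *Erbb2*. The rise was 1.69 on the log2 scale, or 3.22-fold, with a standard error of 0.34 (adjusted p = 0.00248, edgeR). *Erbb2* shares 9 exon bases with *Mien1* on the opposite strand, a small part of its 5210.

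*Erbb3* (chromosome 10, 128569368 to 128589502, minus strand) was at 2.94 CPM in S01, 4.56 in S02 and 2.78 in S03, and at 0.497 CPM in S04, 1.94 in S05 and 2.29 in S06. Every CPCC library lay below every mESC library, which was true of 33.4% of the genes in both tables. The log2 fold change of -1.12 had a standard error of 0.64 and an interval from -2.57 to 0.32 (95%), and it did not pass the threshold (adjusted p = 0.155, edgeR). These values rest on 5 to 31 counts per library, and missing the threshold does not show that the level was equal. *Erbb4* (chromosome 1, 68032187 to 69108060, minus strand), a neuregulin receptor of the myocardium, had 26, 20 and 58 counts in S04, S05 and S06, or 2.58, 2.43 and 6.65 CPM. It is missing from the mESC table, and was at least 8.68-fold higher in CPCCs when compared with 3 counts per mESC library. Without the CPCC library S06 this bound was 5.59-fold.

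**Figure D1:**
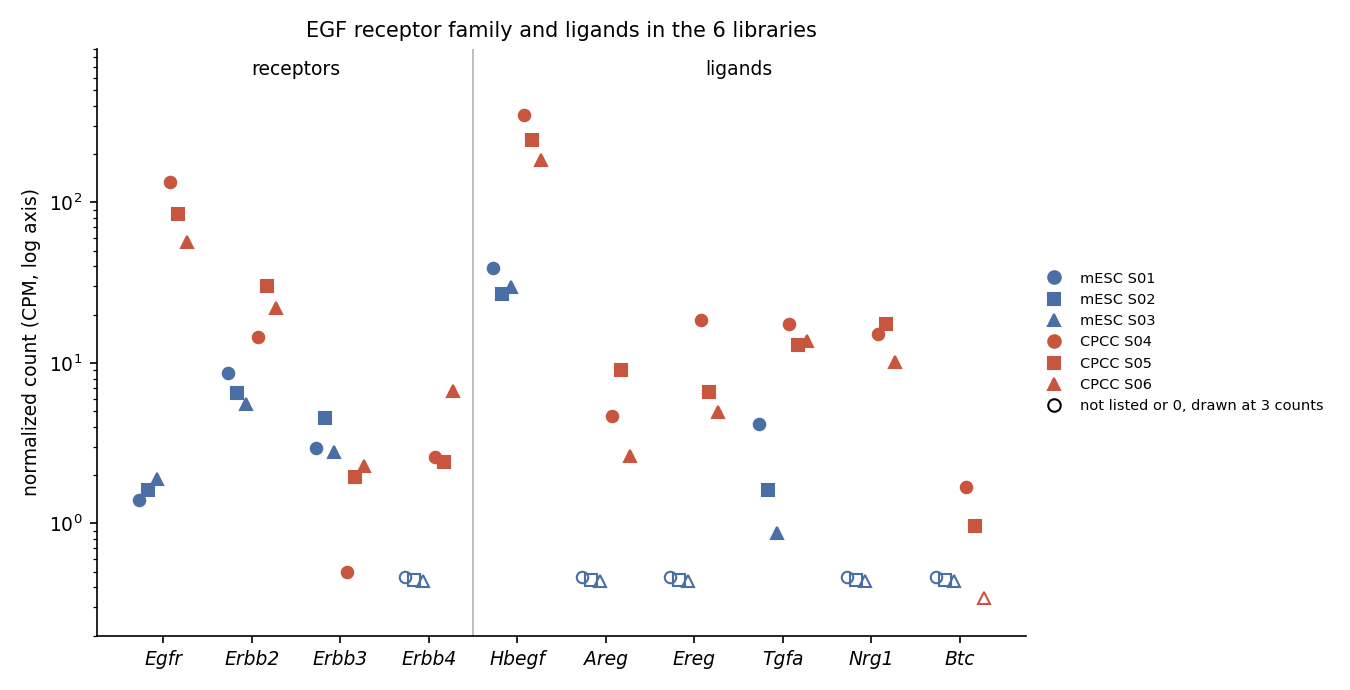
Normalized counts (CPM, log axis) of the 10 genes in each of 3 mESC libraries (blue) and 3 CPCC libraries (red), with receptors on the left and ligands on the right. Open symbols stand for a gene that is not listed or at 0, drawn at the value of 3 counts. *Egfr* and *Hbegf* reach 134.8 and 349 CPM in S04, and *Erbb3* is the receptor whose CPCC libraries lie below the mESC libraries.

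Of the 5 members in both tables, all 5 passed the filter on low counts, and 4 rose and 0 fell in CPCCs at an adjusted p under 0.05, where 31.7% of the 12471 genes tested were higher and 29.7% lower. Without overlap, 4 of the 5 lay above the mESC libraries, as did 34.1% of all genes in both tables. The median log2 fold change of the 5 was 2.72, against 0.03 over all genes tested. The other 5 members were listed for CPCCs only, a property of 15.5% of the genes in either table. When the genes of either table were tested together, with a missing gene at 0 or at 3 counts in each library of the other table, 8 members were higher, as were 36.4% and 34.8% of the genes tested. With 3 counts, the log2 fold changes of *Erbb4*, *Areg*, *Ereg* and *Nrg1* were 3.01, 3.49, 4.38 and 4.87. The filled counts were the same in all mESC libraries, and these genes passed the filter through their CPCC counts alone. Their direction was thus fixed in advance, their values depend on the counts put in, and no p is read from them. These shares describe a list of 10 genes and carry no test of the list.

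Among the ligands, *Hbegf* and *Tgfa* rose and the other 4 were listed for CPCCs only. *Hbegf* (chromosome 18, 36504927 to 36515806, minus strand) encodes heparin-binding EGF-like growth factor and was the most abundant member in all 6 libraries by CPM. Its level was 38.9 CPM in S01, 26.8 in S02 and 29.8 in S03, and 349 CPM in S04, 246 in S05 and 185 in S06. The CPCC libraries all lay above the mESC libraries, and S04 was highest and S06 lowest among them, as for *Egfr*. The mean rose from 31.8 ± 6.32 to 260.0 ± 83.2 CPM (SD, n = 3 each), which is 8.17-fold, or 3.03 on the log2 scale with a standard error of 0.27 (adjusted p = 2.48e-05, edgeR).

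*Tgfa* (chromosome 6, 86195227 to 86275744, plus strand) encodes TGF-alpha, a ligand of EGFR alone. It was at 4.17 CPM in S01, 1.62 in S02 and 0.878 in S03, and at 17.4 CPM in S04, 12.9 in S05 and 13.8 in S06. The groups did not overlap, and the mESC libraries were the more uneven, with 27, 11 and 6 counts. The rise of 2.72 on the log2 scale, or 6.60-fold, had a standard error of 0.52 (adjusted p = 0.0017, edgeR). Without the mESC library S01 it was 11.6-fold.

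*Nrg1* (chromosome 8, 31818028 to 31918204, minus strand) encodes neuregulin, the ligand of ERBB3 and ERBB4. It had 15.1, 17.5 and 10.2 CPM in S04, S05 and S06, from 152, 144 and 89 counts. The mESC table does not list it, and the level in CPCCs was at least 31.8-fold that of 3 counts per mESC library. The position in the table covers part of the annotated gene, which runs from 31814551 to 32884029, and *Nrg1* shares 482 exon bases with *Gm26578* on the opposite strand.

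*Ereg* (epiregulin), *Areg* (amphiregulin) and *Btc* (betacellulin) lie close together on chromosome 5. *Ereg* (91074617 to 91093650, plus strand) had 18.6, 6.55 and 4.93 CPM in S04, S05 and S06, and was at least 22.4-fold higher than 3 counts per mESC library. Most of this came from S04, without which the bound was 12.8-fold. *Areg* (91139599 to 91148433, plus strand) had 4.67, 9.09 and 2.64 CPM, with the highest level in S05, and was at least 12.2-fold higher. Without S05 this bound was 8.16-fold. *Btc* (91357261 to 91402995, minus strand) had 17, 8 and 0 counts, and the 0 in S06 allows up to 0.344 CPM. Its bound was 1.98-fold, and 1.08-fold without S04, so that a difference in *Btc* between the cell types rests on that library.

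The stretch of chromosome 5 that holds these ligands was read as a whole. Within 200 kb on either side of *Epgn* (epigen, a further EGFR ligand), *Ereg*, *Areg* and *Btc*, 7 genes were listed in either table, and 6 of them were listed for CPCCs only. These were *Cxcl1*, *Mthfd2l*, *Epgn*, *Ereg*, *Areg* and *Btc*, of which the last 4 had set the window, so that most of the count was fixed by the choice. Over all genes of either table, 15.5% were listed for CPCCs only. *Mthfd2l*, a mitochondrial enzyme of folate metabolism, had 235, 192 and 149 counts in CPCCs and the largest bound of the 6, at least 47.4-fold. *Epgn* had 11, 6 and 5 counts. The remaining gene, *Parm1*, had 3 to 8 counts per mESC library and 936 to 2413 per CPCC library, a log2 fold change of 7.67 (adjusted p = 2.99e-06, edgeR). All 7 genes thus had few or no listed counts in mESCs. This window and the genes named in it besides the members were chosen after their values were seen.

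**Figure D2:**
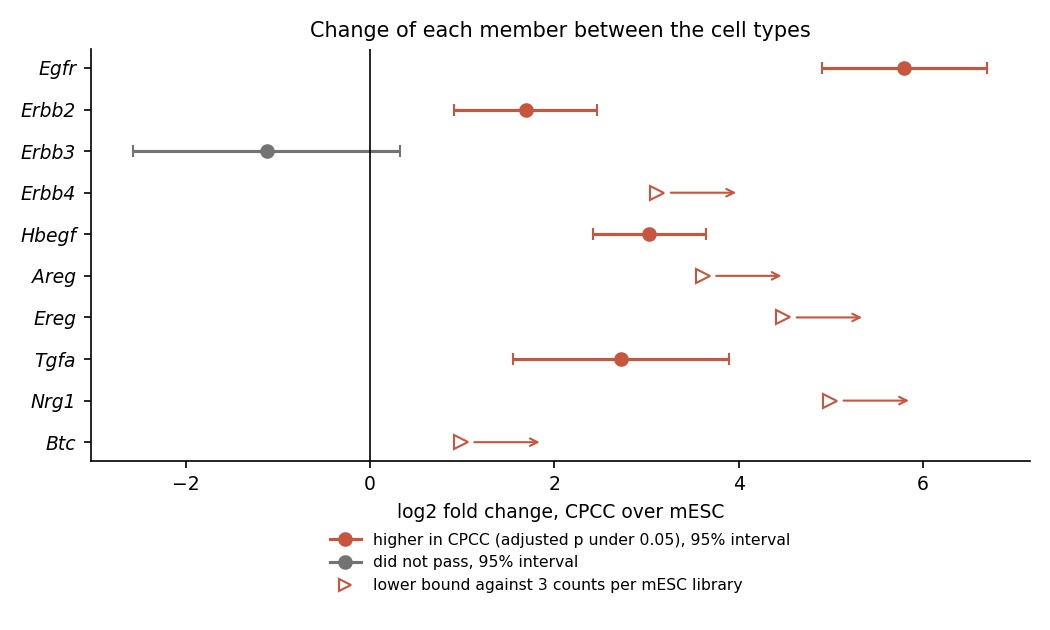
Log2 fold change of CPCC over mESC for the 10 genes. Filled circles are fitted values with their interval (95%), red where the adjusted p is under 0.05 and grey for *Erbb3*, and open triangles with arrows are lower bounds against 3 counts per mESC library. *Egfr* has the highest fitted value, 5.80, and the interval of *Erbb3* spans 0.

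Promoter sequences are shown for *Egfr* and *Erbb2*, the receptors that rose, and for *Areg*, which had more counts than *Btc*, the other chromosome 5 ligand with a promoter in the table used. They are RefSeq sequences on GRCm38.p6, from 250 bases before the annotated start to 50 after it, and 6 of the 10 members matched an entry. Capitals mark matches, on either strand, to the motifs searched, whose letters are given after the sequences. No matches of different motifs overlapped in these sequences.
*Egfr*, chr11:16751953-16752252, plus strand: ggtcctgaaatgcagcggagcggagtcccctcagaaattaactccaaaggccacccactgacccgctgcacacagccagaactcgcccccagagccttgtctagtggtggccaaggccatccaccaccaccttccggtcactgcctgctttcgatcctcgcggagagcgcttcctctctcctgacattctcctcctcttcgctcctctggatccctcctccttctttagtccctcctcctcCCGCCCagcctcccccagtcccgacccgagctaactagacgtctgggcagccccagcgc
*Erbb2*, chr11:98412234-98412533, plus strand: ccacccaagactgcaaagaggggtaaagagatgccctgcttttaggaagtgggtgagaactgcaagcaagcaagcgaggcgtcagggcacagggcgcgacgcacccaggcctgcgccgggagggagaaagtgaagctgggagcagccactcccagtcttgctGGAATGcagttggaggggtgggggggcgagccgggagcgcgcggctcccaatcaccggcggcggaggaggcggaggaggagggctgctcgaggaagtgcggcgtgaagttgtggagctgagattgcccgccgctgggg
*Areg*, chr5:91139349-91139648, plus strand: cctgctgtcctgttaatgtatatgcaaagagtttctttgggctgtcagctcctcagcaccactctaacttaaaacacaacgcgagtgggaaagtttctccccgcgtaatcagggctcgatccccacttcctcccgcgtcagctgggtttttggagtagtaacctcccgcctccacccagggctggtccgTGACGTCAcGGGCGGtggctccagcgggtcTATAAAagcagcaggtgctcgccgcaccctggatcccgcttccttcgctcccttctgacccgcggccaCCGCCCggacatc

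With the base before the start as position -1, the *Areg* promoter held the CRE letters (TGACGTCA, the site of CREB-type factors) at -61 to -54, a GC box (GGGCGG, bound by SP-type factors) at -52 to -47 and the TATA letters (TATAAA, bound by the TATA-binding protein) at -31 to -26, and a further GC box on the minus strand after the start. Over 32851 promoters of this length, 1.79% held the CRE letters, 13.6% the TATA letters and 35.7% a GC box. The *Egfr* promoter held 1 GC box, on the minus strand at -9 to -4, and none of the other letters. The *Erbb2* promoter held the TEAD letters (GGAATG) at -88 to -83, as did 14.7% of promoters, and neither receptor promoter held the CRE or the AP-1 letters (TGANTCA), the latter found in 7.81% of promoters. Of the members not shown, *Tgfa*, a ligand that rose, held GC boxes at -126 to -121 and -15 to -10 and none of the other letters. *Erbb4* and *Btc* held no match. *Areg* was thus the only one of the 6 members with a promoter entry to hold the CRE or TATA letters. A match describes letters in this window and is no evidence of binding. The promoters of *Egfr* and *Erbb2* differed from each other in these matches, while both had more CG pairs (15 and 21) than the median promoter (7).

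The makeup of the receptor counts changed between the cell types. *Egfr* took 10.7% of the receptor counts listed in S01, 12.8% in S02 and 18.6% in S03, and 88.5% in S04, 70.8% in S05 and 64.8% in S06. The Wilson intervals (95%) were 5.74% to 19.1%, 7.29% to 21.5% and 11.2% to 29.2% in mESCs, and 86.8% to 90.0%, 67.9% to 73.6% and 61.4% to 68.1% in CPCCs, for counting error only. *Erbb2* held the largest share in every mESC library, 51.2% to 66.7%, and 9.46% to 25.5% in CPCCs. *Erbb3* went from 22.6% to 36.0% of the counts in mESCs to 0.326% to 2.61% in CPCCs. These shares are of reads, without a correction for gene length, and the mESC sums leave out the counts of *Erbb4*, fewer than 10 over the 3 libraries.

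**Figure D3:**
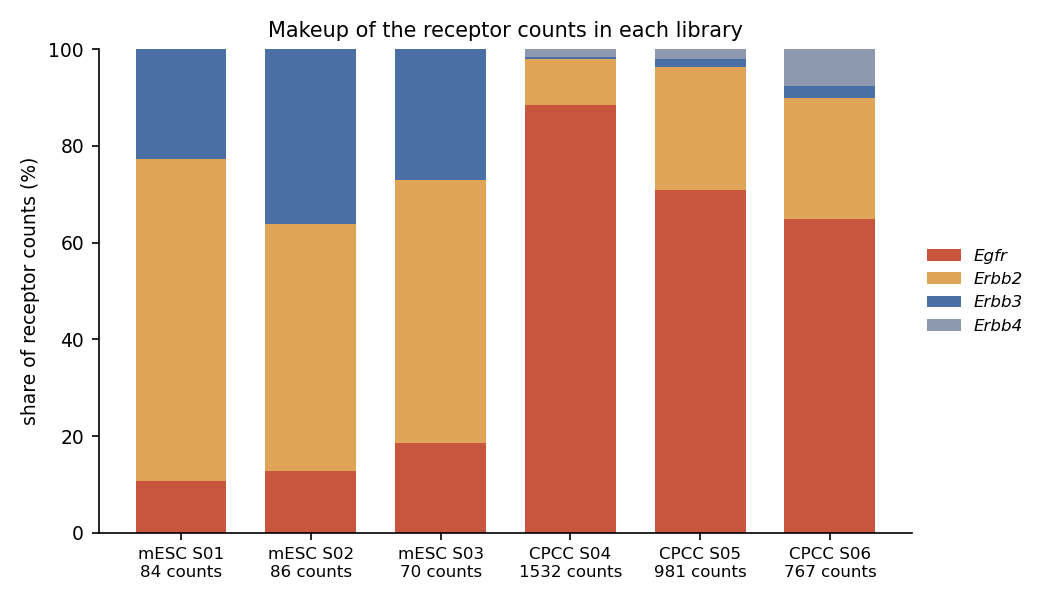
Share of the receptor counts (%) taken by each receptor gene in every library, with the number of receptor counts under each bar. *Erbb4* is missing from the mESC table and so from the mESC bars. *Egfr* takes 10.7% to 18.6% in the mESC libraries and 64.8% to 88.5% in the CPCC libraries.

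Ratios between members within a library do not depend on the scaling of libraries. The log2 ratio of *Egfr* to *Erbb2* was -2.64 to -1.55 in the mESC libraries and 1.37 to 3.23 in the CPCC libraries, a difference of 4.09 (two-sided exact permutation p = 0.1, adjusted p = 0.125 over 5 ratios). This is the smallest p that 3 libraries against 3 allow. The ratio changed sign between the cell types in all libraries, as did that of *Egfr* to *Erbb3*, with a difference of 7.09 (exact permutation p = 0.1, adjusted p = 0.125). The ratio of *Hbegf* to *Tgfa*, both ligands of EGFR, overlapped between the cell types, with 3.22 to 5.09 in mESCs and 3.75 to 4.33 in CPCCs. The means were 4.12 ± 0.93 and 4.11 ± 0.32 (SD, n = 3 each, exact permutation p = 1), which does not show that the ratio was equal, and *Tgfa* rose 11.6-fold and *Hbegf* 9.17-fold without S01. The ratio of *Hbegf* to *Egfr* was 4.81, 4.05 and 3.97 in mESCs and 1.37, 1.55 and 1.70 in CPCCs, a difference of -2.74 (exact permutation p = 0.1, adjusted p = 0.125), so that the receptor rose by more than the ligand. The ratio of *Erbb2* to *Erbb3* was higher in CPCCs by 3.01 (exact permutation p = 0.1, adjusted p = 0.125).

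**Figure D4:**
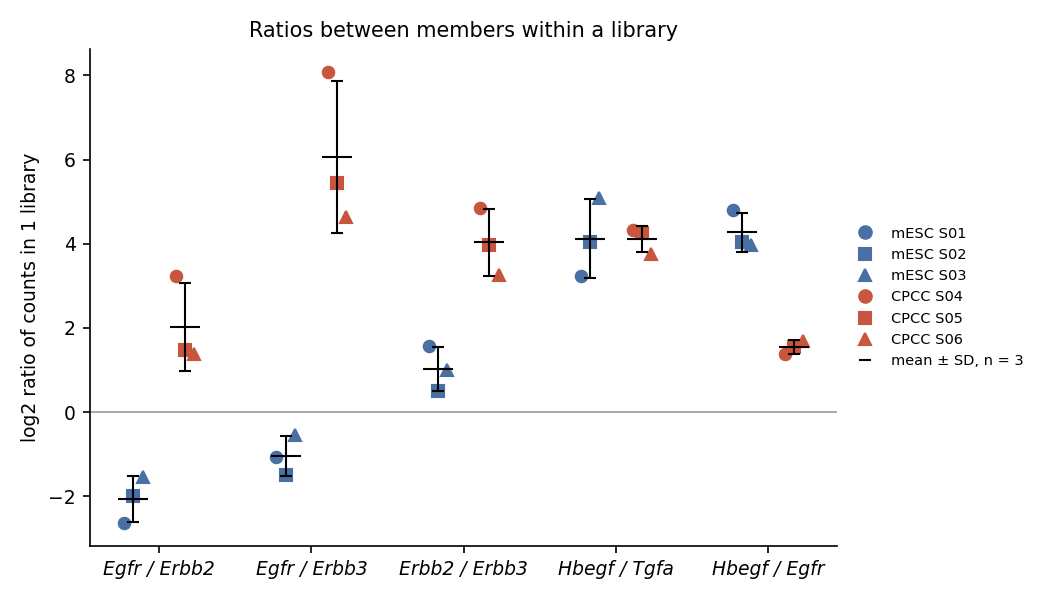
Log2 ratio of the counts of a pair of members within each library, with the mean ± SD of the 3 libraries of a cell type in black. The libraries of the cell types do not overlap in 4 of the 5 ratios, and overlap for *Hbegf* to *Tgfa*, whose means are 4.12 and 4.11. Of single genes in both tables, 34.1% lay above and 33.4% below without overlap, and pairs of other genes were not counted. Several of the ratios share *Egfr* and are not separate results.

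Levels were compared between genes as CPM per kb of the longest coding transcript in GENCODE M21. In mESCs the order was *Hbegf* with 13.4 ± 2.66, *Erbb2* with 1.38 ± 0.317, *Erbb3* with 0.569 ± 0.164, *Tgfa* with 0.491 ± 0.382 and *Egfr* with 0.160 ± 0.0251 CPM per kb (SD, n = 3 each). *Erbb3* and *Tgfa* overlapped, and other neighbours in this order did not at this length. In CPCCs *Hbegf* led with 109 ± 35, followed by *Egfr* with 9.01 ± 3.87, *Areg* with 4.50 ± 2.72, *Erbb2* with 4.44 ± 1.59, *Tgfa* with 3.24 ± 0.531, *Nrg1* with 2.63 ± 0.684 and *Ereg* with 2.43 ± 1.81 CPM per kb (SD, n = 3 each). *Erbb4*, *Btc* and *Erbb3* came last with 0.323, 0.308 and 0.262 CPM per kb. From *Egfr* to *Ereg* the libraries of each neighbouring pair overlapped, as they did among the last 3. With all annotated exons as the length, *Ereg* moved ahead of *Tgfa* and *Nrg1* and *Btc* went last in CPCCs, where *Hbegf* had 53.8 and *Nrg1* 1.38 CPM per kb, and *Tgfa* and *Egfr* overlapped in mESCs.

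Among the 12470 other genes tested, the 3 with the least difference from *Egfr* over the 6 libraries, on centred log2 CPM, were *Camk2d*, *Qsox1* and *Crim1* (root mean square differences of 0.15, 0.17 and 0.21). For *Erbb2* these were *Zfp113*, *Ppp1r16b* and *Lama1* (0.09, 0.13 and 0.16), and for *Erbb3* *Hyls1*, *Lmo1* and *Msc* (0.12, 0.13 and 0.15). With 6 libraries in 2 groups this describes the size of the change and the spread within CPCCs.

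The order of the CPCC libraries differed between members. *Egfr* and *Hbegf* were highest in S04 and lowest in S06, *Erbb3* and *Erbb4* were highest in S06, and *Erbb2* and *Areg* were highest in S05. Marker lists differed between these libraries as well. The summed level of 8 pluripotency markers was 122, 224 and 286 CPM in S04, S05 and S06, that of 6 cardiomyocyte markers was 145, 38.7 and 52.3 CPM, and that of 8 epithelial markers was 733, 690 and 1231 CPM. For cardiomyocyte markers the mESC libraries held 9.73 to 16.8 CPM, with *Myh6*, *Myh7* and *Nppa* missing from the mESC table, and 1 of the 3 markers tested was higher in CPCCs. Of the epithelial markers 7 were tested, with 4 higher and 2 lower, and the mESC libraries held 531 to 762 CPM. Of 6 neural markers, 4 were tested and all 4 were higher, 1 was listed for CPCCs only and 1 was in neither table, and their summed level was 41.9 to 47.8 CPM in mESCs and 567 to 593 CPM in CPCCs. Of 5 endothelial markers, 2 were tested and 1, *Pecam1*, was lower, while 1 was in neither table. *Cdh5* and *Emcn*, listed for CPCCs only, had 126, 11 and 14 counts and 55, 32 and 12 counts in S04, S05 and S06. The sums of the list were 92.3 to 101 CPM in mESCs and 10.2 to 26.9 CPM in CPCCs. *Pecam1* alone had a mean of 91.1 CPM in mESCs and 4.44 CPM in CPCCs. Of 5 endoderm markers, 3 were in neither table and the 1 tested, *Foxa2*, was higher, with sums of 0.927 to 2.78 CPM in mESCs and 13.7 to 47.8 CPM in CPCCs. The part of these markers in the levels of the members was not tested. *Sox10*, a defining marker of neural crest and Schwann cells, where ERBB3 is well known, had 0, 8 and 8 counts in S04, S05 and S06, and the summed level of the 4 markers of that list found in either table was 17.5 to 20.2 CPM in mESCs and 4.17 to 8.94 CPM in CPCCs. Of these, 3 were tested, with 2 lower and 0 higher in CPCCs.

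Other genes of the pathway were read in the same fit. Of 5 further EGF-like ligands none passed. *Nrg4*, a ligand of ERBB4, was the only one tested, with 5.46 ± 0.737 CPM in mESCs and 3.01 ± 1.06 CPM in CPCCs (SD, n = 3 each, adjusted p = 0.129, edgeR). *Egf* itself was below the filter with 3 to 13 counts per library, *Epgn* and *Nrg2* were listed for CPCCs only with at most 11 counts in a library, and *Nrg3* was in neither table. At an unadjusted p under 0.05 the count of the list was also 0.

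Ligands are made as membrane proteins and released by proteases. Of 9 genes of ligand shedding, 8 were tested and 6 were higher in CPCCs and 0 lower, with a median log2 fold change of 1.24. Over all genes tested, 31.7% were higher, 29.7% lower and 61.4% called in either direction. The largest rises were in *Adam9*, a membrane metalloprotease (log2 fold change 3.75, standard error 0.47), *Furin*, which cuts the proforms of these proteases (2.88, standard error 0.28), and *Rhbdf1*, which carries ADAM17 to the surface (2.33, standard error 0.34), with adjusted p of 0.000166, 4.17e-05 and 0.000389 from edgeR. *Adam9* was uneven within CPCCs, at 315 CPM in S04 and 109 and 117 CPM in S05 and S06. *Adam12* was listed for CPCCs only and was at least 202-fold higher than 3 counts per mESC library. *Adam17*, the main protease for several of these ligands and named here after its values were seen, was at 31.1 to 55.7 CPM in mESCs and at 51.5 to 68.6 CPM in CPCCs, and did not pass (adjusted p = 0.098, edgeR).

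Of 17 adaptors and effectors that bind the receptors or act next to them, all were tested, and 10 were higher, 2 lower and 5 did not pass. The 12 called of 17 stand beside 61.4% of all genes tested, and the median log2 fold change was 1.03. *Gab2*, a docking protein, rose from 1.85 ± 0.972 to 33.7 ± 10.9 CPM (SD, n = 3 each; log2 fold change 4.18, adjusted p = 6.57e-05, edgeR). *Plcg1*, a phospholipase that binds the receptor, rose from 2.09 ± 0.439 to 18.9 ± 3.47 CPM (log2 fold change 3.17, adjusted p = 6.55e-05, edgeR). *Plcg1* shares exon bases with *Zhx3* and *Gm27206* on the opposite strand. *Stat5b*, a transcription factor activated by these receptors, rose with a log2 fold change of 1.71 (adjusted p = 0.00559, edgeR). The 2 that fell, named after their values were seen, were *Gab1*, the paralog of *Gab2* (292 ± 46.9 to 156 ± 19.9 CPM), and *Grb2*, the adaptor that brings SOS to the receptor (156 ± 4.49 to 90.5 ± 8.50 CPM; SD, n = 3 each), with log2 fold changes of -0.90 and -0.78 (adjusted p = 0.00208 and 0.00207, edgeR).

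Of 23 genes that attenuate the receptors or carry them into the cell, 22 were tested, with 18 higher, 1 lower and 3 that did not pass, and a median log2 fold change of 0.88, beside 31.7% higher and 29.7% lower over all genes tested. *Sh3kbp1*, an adaptor that joins CBL in taking up the receptor, rose from 3.37 ± 0.630 to 117.6 ± 37.1 CPM (SD, n = 3 each; log2 fold change 5.12, adjusted p = 4.18e-06, edgeR). *Sh3gl2* (endophilin), which acts in the same uptake, was the one that fell, from 104 ± 9.0 to 6.83 ± 4.37 CPM (SD, n = 3 each; log2 fold change -3.93, adjusted p = 6.06e-05, edgeR). *Socs5*, an inhibitor of EGFR signalling, rose with a log2 fold change of 2.81 (adjusted p = 0.000106, edgeR). *Errfi1*, an inhibitor of the EGFR kinase named after its values were seen, was at 57.6 to 70.5 CPM in mESCs and at 211 to 328 CPM in CPCCs, without overlap (log2 fold change 1.99, adjusted p = 5.57e-05, edgeR).

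In the Ras to ERK core, 11 genes were tested, with 4 higher, 2 lower and 5 that did not pass, beside 31.7% higher and 29.7% lower of all genes tested. Its median log2 fold change of 0.23 was the lowest of the 4 pathway lists with more than 1 gene tested. *Mapk3* (ERK1) and *Araf* rose, with log2 fold changes of 1.30 and 0.99 (adjusted p = 0.000646 and 0.00327, edgeR), and *Map2k1* (MEK1), a target of the inhibitor in mESC medium, fell from 401 ± 30.2 to 187 ± 55.5 CPM (SD, n = 3 each; log2 fold change -1.10, adjusted p = 0.00197, edgeR). *Araf* shares 9 exon bases with *Syn1* on the opposite strand.

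**Figure D5:**
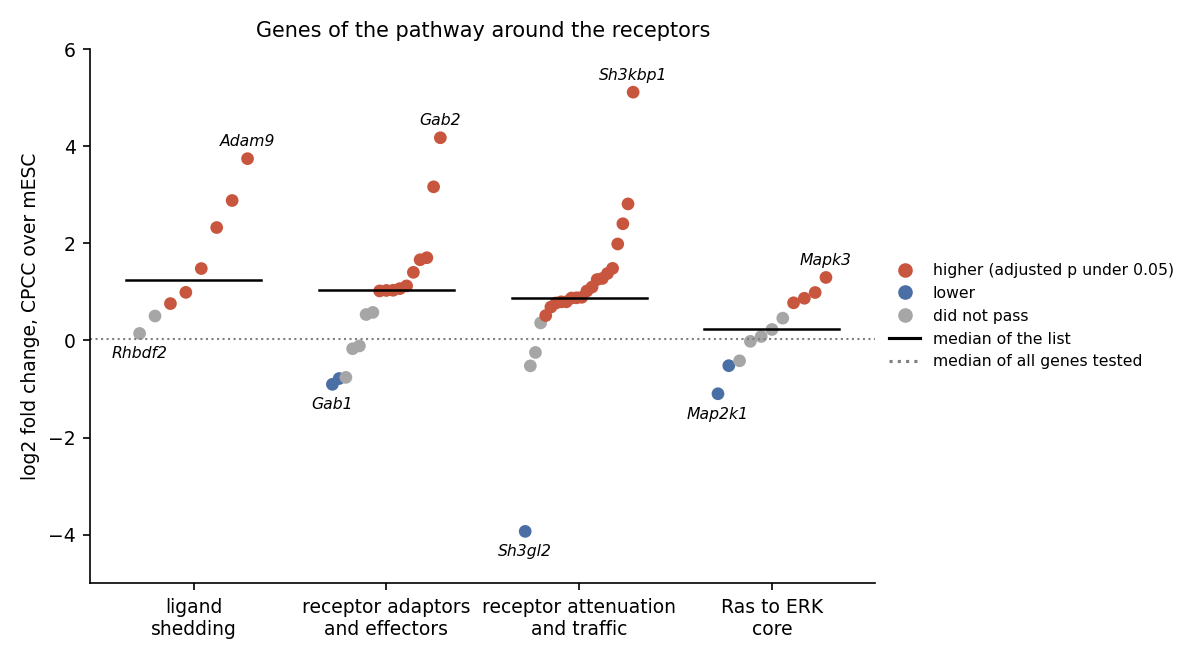
Log2 fold change of CPCC over mESC for the tested genes of 4 pathway lists, sorted within a list. Red and blue points are higher and lower in CPCCs at an adjusted p under 0.05, grey points did not pass, bars are list medians and the dotted line is the median of all genes tested, 0.03. List medians run from 1.24 for ligand shedding to 0.23 for the Ras to ERK core.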

How the data were processed

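mESCs and CPCCs were measured by bulk RNA-seq of polyA-selected cDNA, with 3 libraries each. The authors deposited 1 table per cell type of estimated counts (reads assigned to each gene, both alleles together), without normalization. Per the labels, the submitters' processing notes name STAR 2.7 and mm10, and the counter and its use of strand are not given in the sources used here. Values that are not whole numbers were found for 17.9% to 21.5% of the genes listed in each library. Genes under 10 counts, summed over the 3 libraries of a table, are not listed in it. The stop position of many genes is 1 base past the annotated end. Columns carry no replicate numbers, so libraries are named S01 to S06 and were assigned to a cell type by table.

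Counts were rounded. The 13001 genes in both tables were filtered by filterByExpr (530 removed) and tested with edgeR 4.0.16 in R 4.3.3 (TMM, quasi-likelihood, adjusted p under 0.05). Standard errors are the log2 fold change over the square root of F. A gene in 1 table only got a bound against 3 counts per library (0.439 to 0.463 CPM in mESCs), for counting error only. This bound uses the mean of the libraries that list the gene and leaves out their spread. Gene overlaps and lengths came from GENCODE M21. Besides the overlaps given above, *Ereg* shares 141 exon bases with *Gm19610*, *Tgfa* 118 with *Gm43917* and *Furin* 118 with *Gm44851*. These too lie on the opposite strand. The fit was tested on simulated data. Alternatives were DESeq2 1.42.0, other scalings and filters, missing genes at 0 or 3 counts, and leaving out each library. Named were all members, the 3 largest non-overlapping changes past the threshold per pathway list, up to 3 largest bounds, and the 3 nearest patterns per receptor. Members and lists were chosen with earlier results of these data known. Plots used matplotlib 3.10.9. Allele-specific and single-cell data were not analysed here.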

Additional observations from a re-analysis of the deposited data

How the results depend on the processing

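The 4 members called higher in CPCCs were also 4 in number with each library left out in turn. The count was 2 with at least 10 counts required in every library, since *Egfr* and *Tgfa* then leave the test. It was 8 with genes of either table tested and those missing set to 0 or to 3 counts. *Erbb4*, *Areg*, *Ereg* and *Nrg1* then enter the test, with a direction fixed by the counts put in. *Btc* stayed below the filter. Under the 8 settings and 6 fits without a library, 17 genes were followed, namely the tested members and the largest changes per pathway list. They kept their direction and their side of the threshold in all 234 values. *Adam17*, *Gab1*, *Grb2*, *Errfi1*, *Nrg4*, *Parm1* and other genes named in the text were not followed singly. Without the mESC library S03, 7 genes of ligand shedding were called, against 6. The log2 fold change ranged from 5.43 to 6.06 for *Egfr*, 1.40 to 1.94 for *Erbb2*, -1.50 to -0.68 for *Erbb3*, 2.77 to 3.23 for *Hbegf* and 2.34 to 3.54 for *Tgfa*, with adjusted p for *Erbb3* from 0.0906 to 0.376 (edgeR and DESeq2). Pathway genes called numbered 37 (without S01) to 46 (without S04), against 43. Missing genes at 0 counts moved the median of all genes to 0.17. No paired analysis was possible because no column name holds a replicate number, and the replicate block was not run. *Erbb3*, *Erbb4* and *Btc* had at most 58 counts in a library, and the part of depth in their results was not tested.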
